A study of Mus musculus with 6 samples.

Results

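Genes of early B-cell development and of antigen receptor recombination were examined in total hematopoietic (CD45+) cells of the gut-draining mesenteric lymph node (mLN) and of the spleen. The 8 genes were chosen by name and not by a rule on measured values, though earlier results of these data were known. They were Rag1, Rag2, Dntt, Vpreb1, Vpreb2, Igll1, Vpreb3 and Cd93, of 55487 gene rows in each table. All 8 were found, and 5 of them (Rag1, Rag2, Dntt, Vpreb3 and Cd93) held enough counts to enter the test between tissues. The samples were 3 mLN and 3 spleen polyA RNA libraries from wild-type C57BL6/J mice, sorted for CD45, the antigen carried by nearly all leukocytes, from freshly prepared cells. Each library is therefore a mixture of all leukocytes of its tissue. The labels name no treatment beyond the fresh preparation, give no age, and do not state whether each replicate was another animal, so every p-value rests on a spread between libraries that may be technical. Libraries held 12584244 to 18119551 expected counts.

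In lymphocyte precursors, the RAG1 and RAG2 proteins together form the recombinase that cuts DNA beside the variable, diversity and joining segments of antigen receptor genes, a process called V(D)J recombination. Terminal deoxynucleotidyl transferase, the product of Dntt, adds nucleotides to the cut ends before they are joined by the general end-joining machinery. VPREB1 or VPREB2 pairs with IGLL1 (lambda-5) to form the surrogate light chain, which stands in for the light chain in the pre-B-cell receptor. In adult mice these steps take place mainly in bone marrow for B cells and in thymus for T cells. VPREB3 is a related protein that binds immunoglobulin chains inside the cell and is also made by later B cells. CD93, the antigen of the AA4.1 antibody, marks B-cell precursors and newly formed B cells, and is also found on myeloid, progenitor and endothelial cells.

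Rag1 and Rag2 lie side by side on chromosome 2 with 5752 bases between them, Rag2 at 101624718 to 101632529 on the plus strand and Rag1 at 101638282 to 101649501 on the minus strand (GRCm38, whole-gene extents from GENCODE M21). Dntt is on chromosome 19 (41029275 to 41059525), Vpreb3 on chromosome 10 (75943057 to 75949657) and Cd93 on chromosome 2 (148436640 to 148443563). Igll1 (16860671 to 16863985) and Vpreb1 (16868403 to 16870843) are neighbours on chromosome 16, and Vpreb2 (17980428 to 17981273) is 1109584 bases from Vpreb1 on the same chromosome. The promoter windows of Rag1, Dntt and Vpreb3 are printed because these genes differed between tissues in unlike ways. Each runs from 250 bases before to 50 bases after the RefSeq start of the gene (GRCm38.p6), 5′ to 3′ on the gene's own strand. Capitals mark matches, on either strand, to the octamer ATGCAAAT or to the E-box forms CAGGTG and CAGCTG.
Rag1, chr2:101649483-101649782, minus strand: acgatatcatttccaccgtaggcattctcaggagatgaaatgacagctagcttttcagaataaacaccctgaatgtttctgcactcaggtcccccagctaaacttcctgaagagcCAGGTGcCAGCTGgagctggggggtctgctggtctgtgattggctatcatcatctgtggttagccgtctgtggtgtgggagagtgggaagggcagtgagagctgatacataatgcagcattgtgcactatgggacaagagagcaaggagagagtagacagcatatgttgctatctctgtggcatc
Dntt, chr19:41029025-41029324, plus strand: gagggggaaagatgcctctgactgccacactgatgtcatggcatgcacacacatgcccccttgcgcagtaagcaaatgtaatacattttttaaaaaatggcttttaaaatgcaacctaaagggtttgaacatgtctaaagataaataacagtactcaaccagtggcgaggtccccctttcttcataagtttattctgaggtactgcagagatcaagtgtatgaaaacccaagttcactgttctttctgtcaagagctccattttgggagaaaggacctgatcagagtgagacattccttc
Vpreb3, chr10:75948050-75948349, plus strand: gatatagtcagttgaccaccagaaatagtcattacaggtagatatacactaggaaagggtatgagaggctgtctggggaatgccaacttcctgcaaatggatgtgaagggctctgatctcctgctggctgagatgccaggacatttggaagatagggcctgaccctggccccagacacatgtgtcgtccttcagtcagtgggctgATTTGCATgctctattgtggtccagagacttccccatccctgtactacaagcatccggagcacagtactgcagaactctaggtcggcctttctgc
The Rag1 window held CAGGTG starting at -135 and CAGCTG starting at -128, counted from the RefSeq start. The Vpreb3 window held the octamer (as ATTTGCAT) starting at -45, and the Dntt window held none of these letters. Among the windows not printed here, those of Vpreb1, Vpreb2 and Igll1 also held CAGGTG on either strand. Those of Vpreb2 and Igll1 held CAGCTG as well, and that of Rag2 held no match. Over all 32851 mouse windows of that length, 1.74% held the octamer, 20.2% CAGGTG and 16.3% CAGCTG. A match is a description of the letters and not of binding.

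Rag1 was lower in mLN than in spleen, Dntt was higher, and Rag2 did not pass the test, so the recombination genes did not move together. Vpreb3 and Cd93 were lower in mLN. The surrogate light chain genes had few or no counts in both tissues and did not enter the test. Of the 5 tested genes 1 rose and 3 fell, where 45.5% of the 14427 genes tested were called (21.8% higher and 23.8% lower in mLN, edgeR's quasi-likelihood test at a Benjamini-Hochberg adjusted p under 0.05). With calls this common, a call alone sets no gene apart. Levels below are in CPM, counts per 1000000 counts of a library after TMM scaling. In bulk RNA, fewer cells of a type and less RNA per cell cannot be told apart, for any of these genes.

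**Figure D1:**
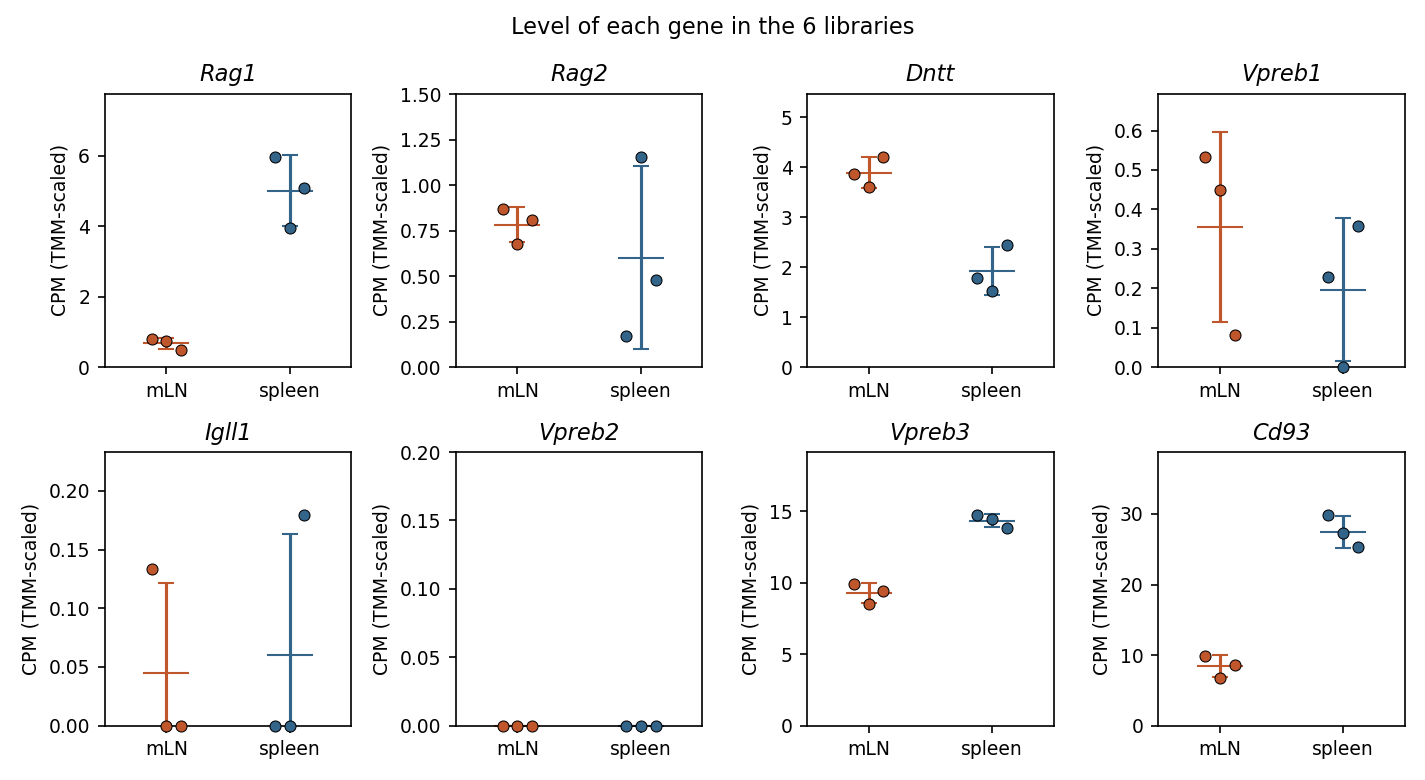
Level of each of the 8 genes in TMM-scaled CPM (linear axes from 0, each panel with its own scale). Points are libraries, the horizontal line is the mean and the bar the SD (n = 3 each, mLN left and spleen right). Rag1 in mLN lies between 0.486 and 0.801 CPM, below all spleen libraries (3.96 to 5.98), while Dntt in mLN lies above all spleen libraries.

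Rag1, the catalytic subunit of the recombinase, had 12, 13 and 6 expected counts in the mLN libraries, against 104, 65 and 85 in the spleen libraries. All mLN libraries were below all spleen libraries, as held for 52.9% of tested genes in one direction or the other. Rag1 averaged 0.673 ± 0.165 CPM in mLN and 5.01 ± 1.01 CPM in spleen (SD, n = 3 each), with a log2 fold change of -2.86 (SE 0.342, adjusted p = 2.48e-09 by edgeR's quasi-likelihood test). The mLN level was 0.137 of the spleen level when counts were pooled over libraries (95% interval 0.0910 to 0.199, counting error only). In all 14 alternative settings the fold change stayed past the threshold, between -3.004 and -2.699. Rag1 has a single counted transcript. It shares 80 exonic bases with B230118H07Rik on the same strand, a gene with 9 to 14 counts in mLN libraries and 12 to 16 in spleen libraries.

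Rag2, the partner subunit that RAG1 needs to cut, had 13, 12 and 10 counts in mLN, against 3, 19 and 8 in spleen. The groups overlap, and the spleen libraries spread more widely, with the highest and the lowest value both in spleen. Rag2 averaged 0.784 ± 0.0988 CPM in mLN and 0.603 ± 0.504 CPM in spleen (SD, n = 3 each), with a log2 fold change of 0.38 (SE 0.588, edgeR adjusted p = 0.640). Pooled counts gave a ratio of 1.31 with a 95% interval of 0.780 to 2.20 from counting alone. The pooled counts do not tell apart ratios within that interval, no difference among them. Without spleen replicate 1 the log2 fold change was -0.07, and without spleen replicate 2 it was 1.252, neither past the threshold. Rag2 has 208 exonic bases in common with B230118H07Rik on the opposite strand, and since the strand setting of the counting is not given, its counts and those of that gene cannot be told apart there. Its effective length, which depends on the transcripts RSEM assigned, ran from 1645 to 2056 bases in mLN and from 1628 to 2605 bases in spleen.

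Rag1 outnumbered Rag2 in every spleen library and not in every mLN library. The log2 ratio of Rag2 to Rag1 within a library (from log2 CPM with a prior count of 2, not per length) was 0.10, -0.10 and 0.61 in mLN, against -4.36, -1.67 and -3.11 in spleen. The groups did not overlap, with means of 0.21 ± 0.37 in mLN and -3.05 ± 1.34 in spleen (SD, n = 3 each). The difference of 3.25 had an exact two-sided permutation p of 0.1, the smallest that 3 against 3 allows. Library size cancels in this ratio. The ratios between genes were chosen after the counts had been seen.

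Dntt, the template-independent polymerase of V(D)J joining, had 58, 64 and 52 counts in mLN, against 31, 25 and 41 in spleen. All mLN libraries were above all spleen libraries. Dntt averaged 3.89 ± 0.306 CPM in mLN and 1.92 ± 0.479 CPM in spleen (SD, n = 3 each), with a log2 fold change of 1.01 (SE 0.302, edgeR adjusted p = 0.00510). The call held in all 14 alternative settings, with log2 fold changes of 0.88 to 1.23 and adjusted p-values up to 0.0319. Dntt and Rag1 differed in opposite directions between the same libraries. The log2 ratio of Dntt to Rag1 was 2.11, 2.12 and 2.83 in mLN, against -1.68, -1.31 and -1.02 in spleen, a difference of 3.69 (exact two-sided permutation p = 0.1, the smallest possible). Rag1 thus held the larger count of the pair in each spleen library and Dntt in each mLN library.

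**Figure D2:**
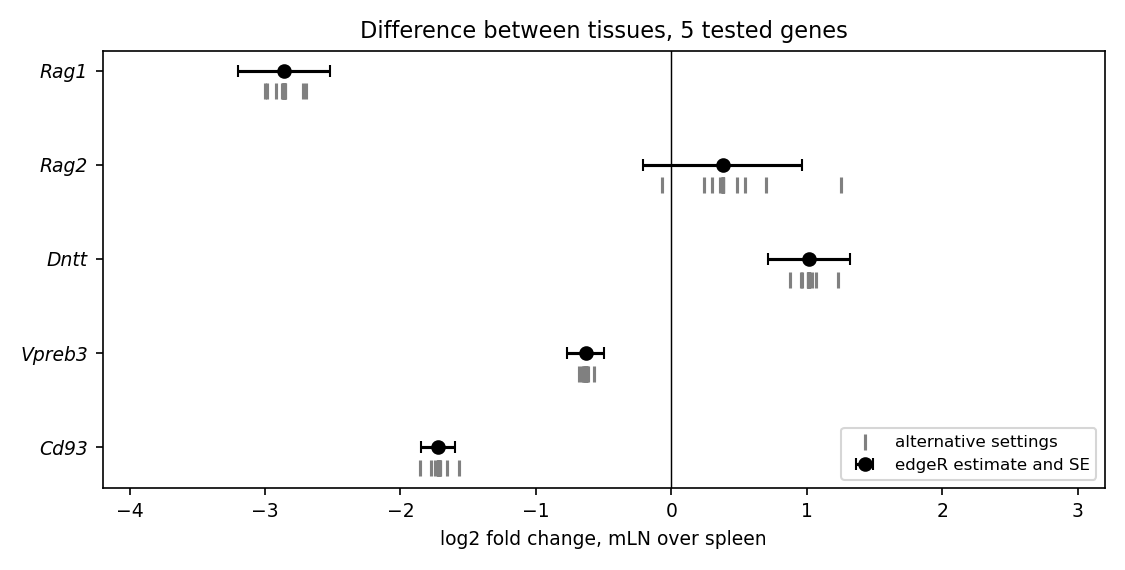
Log2 fold change, mLN over spleen, of the 5 tested genes. Black points are the edgeR estimates with their SE, and grey ticks are the alternative settings. The Rag1 ticks lie between -3.004 and -2.699 and the Dntt ticks between 0.88 and 1.23, while those of Rag2 fall on both sides of 0.

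T-lineage genes moved with Dntt, since all 16 genes of the pan-T list were higher in mLN. Their summed level was 4684 to 4711 CPM in mLN and 2025 to 2037 CPM in spleen. In the list of thymocyte and T-precursor genes 3 of 5 tested genes rose and 1 fell. Of the pair left out of the test there, Ptcra, the surrogate alpha chain gene of the pre-T-cell receptor and the defining marker of that list, had 1 count in mLN libraries together and none in spleen. The list's summed level was 645 to 655 CPM in mLN and 332 to 337 CPM in spleen. The part of T-lineage cells in the Dntt result was not tested. In the plasmacytoid dendritic cell list 3 genes rose and 7 fell of 11, with Siglech, its surface marker, at 5.93 ± 0.834 CPM in mLN and 12.2 ± 1.27 CPM in spleen (edgeR adjusted p = 5.00e-07). Ccr9, a chemokine receptor gene that T cells express too, rose by 1.59 on the log2 scale, and Bst2, an interferon-induced membrane protein gene, by 0.63. The list summed to 644 to 648 CPM in mLN and 952 to 984 CPM in spleen. Most of that sum came from Spib, Ly6d and Tcf4, singled out after their values were seen, which B cells express too and of which Spib is also in the pan-B list. They averaged 256, 128 and 64.1 CPM in mLN, and 455, 234 and 127 CPM in spleen. The other 8 tested genes summed to 196.9 to 199.4 CPM in mLN and 151.8 to 161.3 CPM in spleen, the opposite direction. Most of that sum came from the 3 genes that rose, Pacsin1, Bst2 and Ccr9. They averaged 78.2, 47.9 and 37.7 CPM in mLN, and 59.8, 31.1 and 12.5 CPM in spleen. Siglech, Smim5, Cox6a2 and Runx2 fell, and Klk1 did not pass the test. The part of plasmacytoid dendritic cells in the Dntt result was not tested.

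The surrogate light chain genes had few or no counts in both tissues. Vpreb1 had 8, 8 and 1 counts in mLN, against 4, 0 and 6 in spleen. The groups overlap, and the pooled ratio of 1.90 had a 95% interval of 0.824 to 4.65. Igll1 had 2 counts in 1 mLN library and 3 counts in 1 spleen library, and none in the other 4 libraries. Its ratio of 0.747 had an interval of 0.0624 to 6.52, so no difference could be resolved. Vpreb2 had no counts in any library, which allows a level of up to 0.0665 CPM in mLN and 0.0594 CPM in spleen (3 counts over the libraries of a tissue). These genes fell below the filter on low counts and have no entry in the test. In a fit without the filter, Vpreb1 had an adjusted p of 0.597 and Igll1 of 0.917 by edgeR.

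Counts of Vpreb1 and Vpreb2 are uncertain for another reason, since the genes are near copies. Their main transcripts are identical at 739 of 759 aligned bases (97.4%), and 32.8% of all 50-base windows of Vpreb2 also occur in Vpreb1. A read from such a window is assigned by RSEM's model. The stretch that their RefSeq promoter windows (GRCm38.p6) have in common is printed to show how alike the copies are. Capitals mark the 3 mismatches over 156 bases. The stretch is the end of the Vpreb1 window and the beginning of the Vpreb2 window, so it lies at unlike distances from their RefSeq starts.
Vpreb1, chr16:16869206-16869361, minus strand: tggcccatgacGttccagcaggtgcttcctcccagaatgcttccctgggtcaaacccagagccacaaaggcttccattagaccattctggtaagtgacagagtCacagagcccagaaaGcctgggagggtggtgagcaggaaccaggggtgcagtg
Vpreb2, chr16:17980315-17980470, plus strand: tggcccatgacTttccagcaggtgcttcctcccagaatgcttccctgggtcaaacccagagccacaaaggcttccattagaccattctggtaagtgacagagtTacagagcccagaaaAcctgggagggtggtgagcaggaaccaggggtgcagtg
Vpreb1 also has 108 exonic bases in common with Top3b on the opposite strand, a topoisomerase gene with 1138 to 1655 counts in mLN libraries and 1571 to 1621 in spleen libraries. The few counts given to Vpreb1 cannot be told apart from reads of Top3b there, since the strand setting is not known.

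Vpreb3 had 148, 151 and 116 counts in mLN, against 256, 237 and 231 in spleen. All mLN libraries were below all spleen libraries. It averaged 9.25 ± 0.702 CPM in mLN and 14.3 ± 0.465 CPM in spleen (SD, n = 3 each), with a log2 fold change of -0.63 (SE 0.136, edgeR adjusted p = 0.000147). With an assumed coefficient of variation of 0.2 between libraries, and edgeR's likelihood-ratio test, the adjusted p was 0.0603. The common coefficient estimated over all genes tested was 0.0550.

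Cd93 had 147, 120 and 107 counts in mLN, against 519, 449 and 423 in spleen. Again the groups did not overlap. The level was 8.41 ± 1.55 CPM in mLN and 27.5 ± 2.28 CPM in spleen (SD, n = 3 each), with a log2 fold change of -1.72 (SE 0.125, edgeR adjusted p = 2.53e-15). The call held in all 14 alternative settings (-1.85 to -1.57). Genes of other cells known to carry CD93 fell beside it. In the monocyte and macrophage list 8 of 12 genes fell and 3 rose, with a summed level of 1045 to 1068 CPM in mLN and 1364 to 1380 CPM in spleen. Csf1r, the growth factor receptor gene that defines these cells, was at -0.21 on the log2 fold change scale, a call lost with the assumed coefficient of variation. Without spleen replicate 3, with the effective-length offset or with that coefficient, 1 gene of that list rose.

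All 11 tested genes of the haematopoietic progenitor list fell. It summed to 17.5 to 19.0 CPM in mLN and 324 to 332 CPM in spleen, and Elane, Ctsg, Ms4a3, Mecom and Cebpe had no counts in mLN. Most of the spleen sum came from Mpo, the myeloperoxidase gene, at 0.281 CPM in mLN and 178 CPM in spleen. Elane and Prtn3 added 31.0 and 23.8 CPM in spleen. Cd34 averaged 0.239 CPM in mLN and 4.95 CPM in spleen. Flt3 fell least, with a log2 fold change of -0.98. Kit, the stem cell factor receptor gene, stood at 6.47 ± 1.43 CPM in mLN and 26.7 ± 2.44 CPM in spleen (log2 fold change -2.03, edgeR adjusted p = 1.04e-16). In the endothelial list 3 of 6 tested genes fell. The count lower was 1 with the effective-length offset and 2 without any one library other than mLN replicate 2, and without mLN replicate 2 1 gene rose. The list summed to 207 to 229 CPM in mLN and 206 to 212 CPM in spleen, nearly all of it Pecam1, which leukocytes express too. Cdh5, which encodes an adhesion protein of endothelial cells, was at 0.878 ± 0.638 CPM in mLN and 2.09 ± 0.415 CPM in spleen (edgeR adjusted p = 0.0306), and its call was lost without mLN replicate 1, mLN replicate 3, spleen replicate 2 or spleen replicate 3. All 8 neutrophil genes were lower as well, at 1.968 to 2.996 CPM in sum in mLN and 1247 to 1273 CPM in spleen. The part of each of these cell types in the Cd93 and Rag1 results was not tested.

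Per length, in the authors' length-scaled TPM values, Vpreb3 stood highest of the 8 genes in both tissues, at 32.4 ± 2.39 TPM in mLN and 52.7 ± 2.16 TPM in spleen (SD, n = 3 each). In mLN Dntt came next (3.17 ± 0.285 TPM), then Cd93 (1.87 ± 0.348), Vpreb1 (1.02 ± 0.750), Rag2 (0.623 ± 0.119) and Rag1 (0.150 ± 0.0361). The libraries of Cd93 and Vpreb1 overlapped there, as did those of Vpreb1 and Rag2. In spleen Cd93 came after Vpreb3 (6.31 ± 0.506 TPM), followed by Dntt (1.63 ± 0.404), Rag1 (1.16 ± 0.231), Vpreb1 (0.730 ± 0.644) and Rag2 (0.383 ± 0.297). From Dntt downward each of these overlapped with the next in spleen. Igll1 was at 0.0333 ± 0.0577 TPM in mLN and 0.107 ± 0.185 TPM in spleen, and Vpreb2 is listed at 0.

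B-cell genes as a whole were lower in mLN, all 20 genes of the pan-B list among them (median log2 fold change -0.81, against -0.00179 over all genes tested). Each tested gene was therefore also set against the 20 pan-B genes of the same library, by their mean log2 CPM. Vpreb3 stood at -4.63 ± 0.11 on this log2 scale in mLN and -4.81 ± 0.03 in spleen, a difference of 0.17. Its fold change was thus close to that of the pan-B genes, with mLN slightly the higher. Rag1 stayed lower in mLN relative to pan-B genes, at -8.21 ± 0.34 against -6.32 ± 0.29 in spleen, a difference of -1.89. Cd93 stayed lower too, at -4.78 ± 0.27 in mLN and -3.88 ± 0.11 in spleen, a difference of -0.91. Dntt was higher by 1.80, at -5.86 ± 0.10 in mLN and -7.65 ± 0.34 in spleen. Rag2 was at -8.00 ± 0.16 in mLN and -9.37 ± 1.05 in spleen, a difference of 1.36 that ran from 0.84 without spleen replicate 1 to 1.89 without spleen replicate 2. Libraries did not overlap for any of the 5 genes, though Vpreb3 did with the effective-length offset. Each exact two-sided permutation p was 0.1, the smallest that 3 against 3 allows. The share of all tested genes without overlap on this scale was not computed, so the lack of overlap sets none of the 5 apart. Because all 20 reference genes fell, a gene with equal CPM in both tissues stands higher in mLN on this scale. In CPM, Rag2 overlapped between tissues (log2 fold change 0.38, edgeR adjusted p = 0.640).

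**Figure D3:**
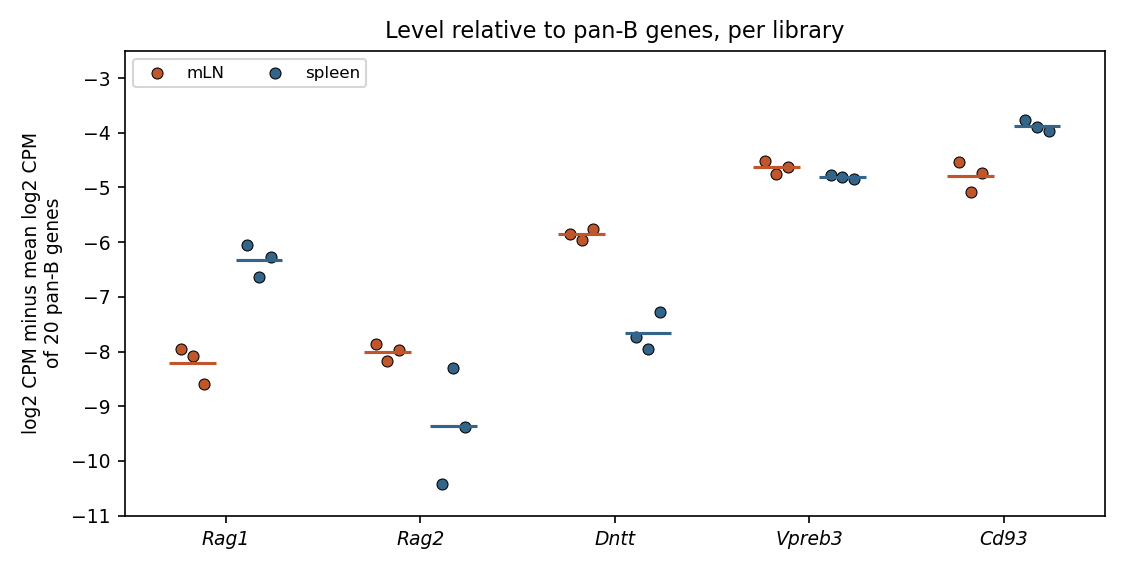
Level of the 5 tested genes relative to pan-B genes: log2 CPM of the gene minus the mean over 20 pan-B genes in the same library. Points are libraries (mLN left, spleen right) and lines are means. The tissues lie close for Vpreb3 (-4.63 and -4.81) and far apart for Rag1 (-8.21 and -6.32) and Dntt (-5.86 and -7.65).

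Of 24 tested pro-B and pre-B genes other than the 8, 19 were lower and 4 higher in mLN (median log2 fold change -0.70). The median of the pan-B list was -0.81, and 6 of the 19 lower genes, namely Ebf1, Pax5, Cd79a, Cd79b, Blnk and Btk, are in that list as well. Of the 18 genes outside it, 13 fell and 4 rose (median -0.53). With the assumed coefficient of variation of 0.2, 2 of the 24 genes were higher. The largest falls were those of Erg, a transcription factor gene of early progenitors, with 0.229 ± 0.207 CPM in mLN and 2.41 ± 0.124 CPM in spleen (log2 fold change -3.39, edgeR adjusted p = 2.81e-06), and of Cplx2, a complexin gene, with 0.852 ± 0.475 CPM in mLN and 9.23 ± 1.47 CPM in spleen (-3.35, adjusted p = 1.18e-13). Bst1 (CD157), a surface enzyme of early B cells and of myeloid cells, had a log2 fold change of -1.11, a call lost with the effective-length offset. Ebf1, the transcription factor gene that commits cells to the B lineage and itself a gene of the pan-B list, had one of -0.69. The largest rises were those of Lef1 (1.97) and Il7r (1.2002). The Il7r product is the interleukin-7 receptor of B-cell precursors, and mature T cells also express both genes. Arpp21, the member left untested, had 3 to 8 counts in mLN libraries and 1 to 4 in spleen libraries.

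In the list of immature and transitional B-cell genes, without Vpreb3 and Cd93, 9 of 12 genes fell and 3 rose (median -0.46). Cd24a, a surface antigen gene that is high on newly formed B cells and also on red-cell and granulocyte precursors, was at 71.2 ± 3.25 CPM in mLN and 284 ± 1.78 CPM in spleen (log2 fold change -1.996, edgeR adjusted p = 8.21e-35). Ighm, the IgM heavy chain gene, had a log2 fold change of -2.09. Spn, the gene of the leukocyte antigen CD43, was higher in mLN (0.32), a call lost with the assumed coefficient of variation (edgeR adjusted p = 0.454). Of these genes Cr2 and Tnfrsf13c are also in the pan-B list, and of the other 10, 7 fell and 3 rose (median -0.34). Red-cell genes fell beside Cd24a, with all 8 erythroid genes lower and a summed level of 10.8 to 13.0 CPM in mLN and 1574 to 1629 CPM in spleen. Car1, a carbonic anhydrase gene of red cells, and Rhag, a membrane protein gene, had no mLN counts. The part of red-cell precursors in the Cd24a result was not tested.

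The end-joining machinery, which completes V(D)J recombination, serves DNA repair in all cells. Genes of a list of V(D)J end joining and DNA repair, with Hmgb1 and Hmgb2 in it, moved in both directions and by small amounts. Of 17 tested genes 4 were higher and 4 lower in mLN, and 9 did not pass the test (median 0.12). Over all genes tested 45.5% were called, 21.8% higher and 23.8% lower in mLN, so these counts do not set the list apart. With the effective-length offset 1 gene of the list was higher. The largest rise was that of Prkdc, the kinase gene of end joining, at 128 ± 1.64 CPM in mLN and 99.98 ± 2.20 CPM in spleen (log2 fold change 0.35, edgeR adjusted p = 3.47e-09). The largest fall was that of Hmgb2, a DNA-bending protein gene that also goes with proliferation, at 138 ± 7.21 CPM in mLN and 228 ± 11.2 CPM in spleen (-0.73, adjusted p = 6.57e-19). All 15 cell cycle genes fell beside it, with a summed level of 791 to 821 CPM in mLN and 1413 to 1450 CPM in spleen. Polm, a polymerase gene related to Dntt, had a log2 fold change of -0.32. The calls of Prkdc and Polm were lost with the assumed coefficient of variation. Xrcc4 (0.35, adjusted p = 0.0542) and Lig4 (0.15, adjusted p = 0.390), the partners of the final ligation, did not pass the test.

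**Figure D4:**
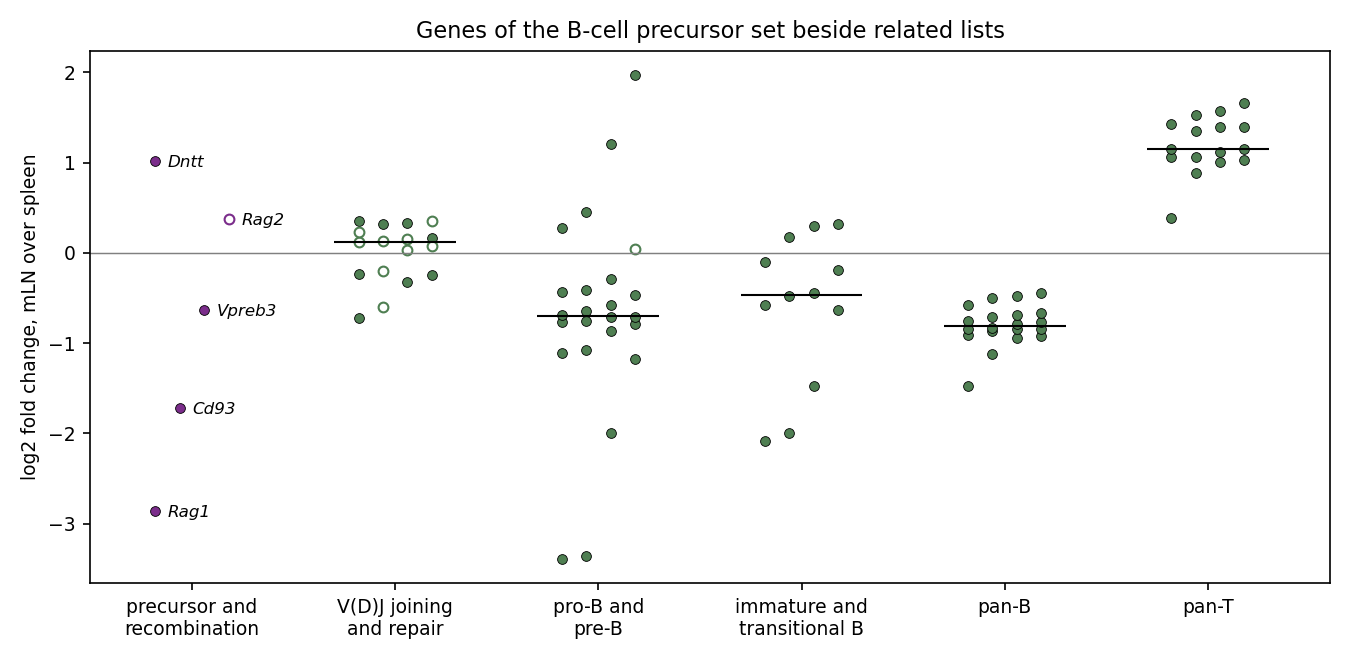
Log2 fold change, mLN over spleen, of the 5 tested precursor and recombination genes and of the genes in 5 related lists, leaving out from the lists the 8 genes described here. Filled points passed edgeR's test, open points did not, and lines are list medians. Pan-B genes lie below 0 and pan-T genes above it, while the precursor and recombination genes run from -2.86 (Rag1) to 1.01 (Dntt).

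The genes most like each tested gene were taken by the root mean square difference of log2 CPM over the 6 libraries, each gene centred on its own mean, among 11639 protein-coding genes. Closest to Rag1 were Fads3 (0.142) and Tspan33 (0.177), against a median of 1.37 over all candidates. Closest to Dntt were the interferon-inducible genes Gbp2b (0.0760) and Rtp4 (0.0817), with a median of 0.553. Closest to Vpreb3 were Cxxc5 (0.0324) and Prim2 (0.0380), with a median of 0.361. Closest to Cd93 were Rasgrp4 (0.0800) and Cpd (0.0921), with a median of 0.882. For Rag2 the nearest, Paqr3 (0.269) and Prune2 (0.282), were farther off, with a median of 0.694. The tissue difference itself enters this measure, since the 6 libraries come from a pair of tissues. The smallest of 11639 distances lie below their median by construction, so each median only gives the scale of the distances.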

How the data were processed

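Sorted CD45+ cells gave 3 mLN and 3 spleen polyA libraries, made with a directional kit, per the labels. STAR, RSEM and the build mm10 are named in the submitters' processing notes. Of versions, annotation and strand setting nothing is stated. The authors deposited, per the file headers, an expected count, an effective length and a TPM value for each gene, with TPM summing to 1000000 in each library. Of 55487 gene identifiers, 55227 matched GENCODE M21 (GRCm38), and the others held 0.0142% to 0.0189% of counts. Promoter sequences are from RefSeq (GRCm38.p6), with 7 of the 8 genes matched and Cd93 named only.

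Expected counts were rounded. Genes were kept with filterByExpr by tissue (14427), scaled with TMM factors, and tested in R 4.3.3 with edgeR 4.0.16 by its robust quasi-likelihood F-test on tissue alone, Benjamini-Hochberg adjusted over all genes tested. SE was taken from the F statistic. Intervals of pooled counts are exact (95%), and they and the floors of 3 counts cover counting error only, since reads carried no molecular identifiers. The test was tried on simulated counts. Alternatives were other size factors, DESeq2 1.42.0, other filters, a replicate block and leaving out each library. Others were an effective-length offset, leaving out dominant gene families and an assumed coefficient of variation. The assumed coefficient went with edgeR's likelihood-ratio test, not its quasi-likelihood test.

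From each list up to 2 called genes with the largest rise and fall were eligible to be named, beside fixed markers and the 2 genes most like each tested gene. Not all are printed, and some are not reported here. The genes and lists were chosen with earlier results of these data known.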

Additional observations from a re-analysis of the deposited data

How the results depend on the processing

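The calls of Rag1, Dntt and Cd93 and the lack of one for Rag2 held in all alternatives that gave a value. Rag2 could not be fitted with the filter of at least 1 CPM in 3 libraries, and its log2 fold change turned to -0.0655 without spleen replicate 1, within a range of -0.0655 to 1.252 on leaving out one library each. Vpreb3 lost its call only with an assumed coefficient of variation of 0.2 (log2 fold change -0.63, adjusted p = 0.0603), an alternative chosen after the data were seen. Under it 2868 genes were called, 934 higher and 1934 lower, against 6569 (3139 and 3430). Over the alternatives chosen earlier the number called ran from 4687, with the effective-length offset, to 6587. In every fit 4 of the 8 genes were called, 1 higher and 3 lower, except that under the assumed coefficient of variation 3 were called. The direction of all 5 tested genes relative to pan-B genes held in each alternative tried. Of 23 other named genes, Cdh5 and Bst1 lost their calls with the effective-length offset (-1.19 and -0.55), Cdh5 also without any of 4 libraries, and Csf1r, Spn, Prkdc and Polm with the assumed coefficient of variation. Under it the V(D)J joining list had 0 genes higher and 1 lower, and the immature and transitional list, with Vpreb3 and Cd93 in it, 0 and 5. The cause was not tested. The replicate numbers of the labels were entered as a replicate block, with 6455 genes called and no call of the 5 genes changed. Same-numbered libraries of the tissues did not deviate together (correlations of 0.0182, 0.00393 and -0.0214 over 9295 genes). Since the spread within a tissue may be technical, these correlations cannot settle whether the numbers pair the samples. The labels do not say. Depth limits Rag2, Vpreb1, Vpreb2 and Igll1, each with at most 35 counts in either tissue, and also Rag1 in mLN, with 31 counts there.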
